A study of Mus musculus with 12 samples.

Results

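The regions described here are promoters of protein-coding genes that were accessible both in mouse embryonic fibroblasts (MEFs) and in mouse embryonic stem cells (mESCs). They were chosen by the presence of a peak of accessible chromatin: a peak of the BGI peak set was taken if it lay within 1 kb of the transcription start site (TSS) of a protein-coding gene, overlapped by at least 1 bp a peak in each of the 4 lists of reproducible peaks (MEF and mESC, each on 2 sequencing platforms), and did not also lie within 1 kb of the TSS of a second protein-coding gene on the opposite strand. Of the 91,354 peaks of the set, 13,078 (14.3%) met the rule, and they were assigned to 10,355 of the 21,951 protein-coding genes in GENCODE M21 on GRCm38. Every peak was 502 bp wide, so that read counts can be compared between promoters without a correction for length.

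A promoter is the stretch of DNA around a TSS where RNA polymerase II and the general transcription factors assemble, and in active genes it is kept free of nucleosomes. Promoters of genes that every cell uses mostly lie in CpG islands, GC-rich DNA that keeps its CpG sites because they are not methylated, and carry binding sites of widely expressed factors such as SP1, NF-Y, the ETS family, NRF1 and YY1. Omni-ATAC-seq measures how accessible they are by the number of fragments that a transposase cuts out of the DNA, which is not a measure of transcription.

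The MEFs were sorted for the surface marker THY1, and the mESCs were sorted as negative for THY1 and positive for SSEA1 and EPCAM. Both came from a C57/Bl6 background and no treatment or engineered allele is given for either. Per cell type, 3 Omni-ATAC-seq libraries were made from separate biological replicates (MEF 1, 2 and 4, mESC 1, 3 and 5). All 6 libraries were read by a DNBSEQ-G400 (BGI) and by a HiSeqX10 (Illumina), which gave 12 samples in 4 groups of 3. The platforms thus read the same libraries and are not biological replicates of each other.

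Between 15.9 and 21.8 M reads per sample fell in the peak set, and the median promoter of the set held 306 to 514 reads per sample. Across the 13,078 promoters, Spearman correlations of the counts were 0.974 to 0.986 between replicates of a group, 0.958 to 0.971 between the 2 platforms for the same library, and 0.775 to 0.793 between the cell types on the same platform. The points of these correlations share libraries and base composition, and they are given as a description. Promoter peaks of the sorting and lineage markers followed the labels: the summed level over 8 mESC markers was 52.0 to 57.2 CPM (counts-per-million of the reads in peaks) in MEF samples and 399 to 451 CPM in mESC samples, and that of 8 fibroblast markers was 322 to 399 CPM in MEFs and 116 to 140 CPM in mESCs. No promoter peak was present for the endothelial gene Cdh5 or for the blood genes Ptprc and Spi1, and the summed level of the endothelial list was 19.4 to 26.3 CPM in both cell types. The other lists were higher in mESCs: the blood list, from the 2 promoter peaks of Cd68 alone, had 11.4 to 21.0 CPM in MEFs and 56.2 to 67.8 CPM in mESCs, the neural list 30.6 to 38 and 81.5 to 105 CPM, and the epithelial list 26.4 to 29.1 and 86.1 to 111 CPM.

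The DNA just upstream of the TSS is shown for 12 promoters that the results turn on, as the last 150 bases before the annotated start, read 5′ to 3′ on the strand of the gene from GRCm38. Capitals mark exact matches, on either strand, to 15 short words bound by known factors, among them the GC box of the SP and KLF family (GGGCGG), the CCAAT box of NF-Y (CCAAT), the TATA word (TATAAA) and the AP-1 word (TGANTCA). The first 3 are promoters with some of the highest levels in both cell types: Sp1 (chr15:102405993-102406142, + strand), G3bp1 (chr11:55469535-55469684, + strand) and Khsrp (chr17:57031523-57031672, - strand).
Sp1: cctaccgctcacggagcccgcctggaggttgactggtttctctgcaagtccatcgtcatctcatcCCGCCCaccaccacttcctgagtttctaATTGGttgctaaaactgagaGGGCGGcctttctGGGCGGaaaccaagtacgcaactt
G3bp1: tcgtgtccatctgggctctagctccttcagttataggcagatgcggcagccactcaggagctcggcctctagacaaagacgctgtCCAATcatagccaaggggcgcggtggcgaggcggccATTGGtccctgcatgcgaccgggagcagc
Khsrp: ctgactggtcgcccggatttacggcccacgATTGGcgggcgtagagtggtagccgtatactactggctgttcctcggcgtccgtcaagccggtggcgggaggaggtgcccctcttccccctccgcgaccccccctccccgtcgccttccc

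The next 3 were more accessible in mESCs than in MEFs while being open in both: Utf1 (chr7:139943639-139943788, + strand), Prkcz (chr4:155361362-155361511, - strand) and F11r (chr1:171437385-171437534, + strand). All 3 hold at least 1 GC box in this stretch.
Utf1: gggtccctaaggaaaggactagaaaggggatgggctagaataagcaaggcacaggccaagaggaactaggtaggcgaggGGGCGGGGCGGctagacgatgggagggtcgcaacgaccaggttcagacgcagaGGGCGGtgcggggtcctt
Prkcz: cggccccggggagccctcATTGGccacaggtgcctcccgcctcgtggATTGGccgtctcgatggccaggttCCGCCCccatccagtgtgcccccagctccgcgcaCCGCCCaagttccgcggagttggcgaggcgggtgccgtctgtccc
F11r: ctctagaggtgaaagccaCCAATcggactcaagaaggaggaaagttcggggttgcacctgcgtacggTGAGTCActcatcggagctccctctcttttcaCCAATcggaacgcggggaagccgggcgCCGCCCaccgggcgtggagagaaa

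A further 3 were more accessible in MEFs: Lgals1 (chr15:78926575-78926724, + strand), Tagln (chr9:45936059-45936208, - strand) and Thbs2 (chr17:14694236-14694385, - strand). Lgals1 holds a match to the TATA word on the other strand (TTTATA), in the part of the stretch furthest from the TSS. Thbs2 holds no match to any of the 15 words in these bases.
Lgals1: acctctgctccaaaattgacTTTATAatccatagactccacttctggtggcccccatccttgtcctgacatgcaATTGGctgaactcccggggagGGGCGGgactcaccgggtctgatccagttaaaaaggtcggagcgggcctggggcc
Tagln: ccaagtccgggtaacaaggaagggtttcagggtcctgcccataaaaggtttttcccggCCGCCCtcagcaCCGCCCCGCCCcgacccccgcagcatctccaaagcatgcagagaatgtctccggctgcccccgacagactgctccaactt
Thbs2: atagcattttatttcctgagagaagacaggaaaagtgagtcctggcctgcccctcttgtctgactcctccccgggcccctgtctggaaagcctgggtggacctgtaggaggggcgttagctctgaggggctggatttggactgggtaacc

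The last 3 are promoters whose counts differed between the sequencing platforms: Dpy19l1 (chr9:24503141-24503290, - strand), which was higher on Illumina, and Qdpr (chr5:45450237-45450386, - strand) and Spc25 (chr2:69206195-69206344, - strand), which were higher on BGI. The GC content of these bases was 82.7% at Dpy19l1, 58.0% at Qdpr and 54.7% at Spc25. Eml4, also higher on BGI in MEFs, had 76.7% GC in the same bases and 63.9% over its whole peak, which is the stretch that was counted.
Dpy19l1: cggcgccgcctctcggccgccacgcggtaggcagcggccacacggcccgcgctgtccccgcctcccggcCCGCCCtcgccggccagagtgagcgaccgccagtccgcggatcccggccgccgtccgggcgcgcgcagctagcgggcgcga
Qdpr: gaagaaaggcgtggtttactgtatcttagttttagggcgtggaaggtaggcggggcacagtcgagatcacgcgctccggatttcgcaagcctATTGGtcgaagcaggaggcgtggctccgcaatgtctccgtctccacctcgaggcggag
Spc25: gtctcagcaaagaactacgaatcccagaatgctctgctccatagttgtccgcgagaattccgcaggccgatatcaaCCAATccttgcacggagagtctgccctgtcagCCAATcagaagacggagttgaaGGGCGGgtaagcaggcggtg

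The promoters open in both cell types were GC-rich and centred on the start site. Their median GC content over the 502 bp was 62.75%, and the median ratio of observed to expected CpG was 0.76. The median of the mean level over the 12 samples was 21.9 CPM, with 10% of promoters under 10.5 CPM and 10% over 50.6 CPM. Promoter peaks listed in MEFs only (1891 peaks) had a median GC of 52.4%, a CpG ratio of 0.374 and a level of 7.07 CPM, and those listed in mESCs only (2699 peaks) had 55.2%, 0.384 and 6.81 CPM. Peaks over 1 kb from the TSS of any annotated transcript, coding or not, that were open in both cell types (10,158 peaks) had a median GC of 51.6%, a CpG ratio of 0.286 and a level of 10.9 CPM. The most similar class were the 1347 promoter peaks that were open in both cell types but faced a second gene, with 62.55%, 0.812 and 31 CPM, and the 3481 promoter peaks in some of the lists had 60.2%, 0.629 and 9.82 CPM. A list of peaks in all 4 groups takes in peaks of high count more easily, so the levels are a description of the classes and were not tested.

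The summit of accessibility lay a little upstream of the start. The median offset of the peak centre from the nearest protein-coding TSS was -26 bp, with quartiles of -95 and 48 bp, and 55.0% of the centres were within 100 bp of it. Level differed with the position: the median was 32.1 CPM for the 1726 promoters centred 100 to 250 bp upstream, 24.1 CPM for the 7191 within 100 bp, 15.1 CPM for the 808 more than 500 bp upstream and 13.4 CPM for the 1309 more than 500 bp downstream. At the margins of the rule, 176 promoters, whose smallest overlap with a peak of the 4 lists was under 50 bp, had a median level of 14.3 CPM. A further margin held 150 promoters with their nearest start over 900 bp away (13.4 CPM). The 2182 promoter peaks present in 3 of the 4 lists, which were not taken, had a median of 11.1 CPM. The promoters with a start inside the peak numbered 9630.

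**Figure D1:**
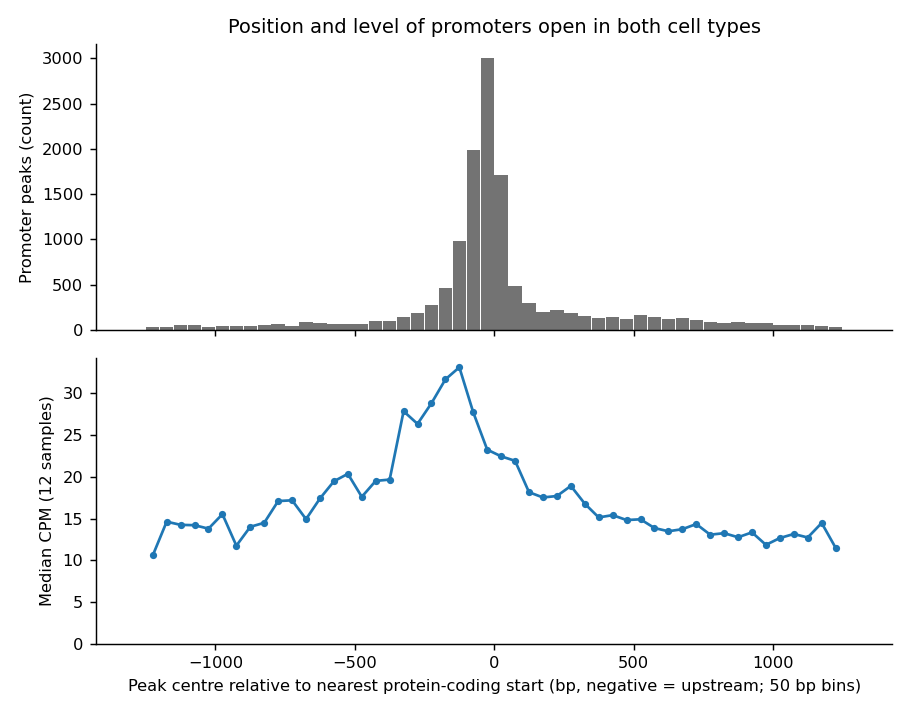
Position of the 13,078 promoter peaks relative to the nearest protein-coding TSS, in bins of 50 bp along the direction of transcription (x axis, distance of the peak centre from the TSS in bp), as the number of peaks and as the median level in counts-per-million. Most centres sit within 100 bp of the start, and the highest median levels lie between 100 and 250 bp upstream of it.

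Binding-site words differed between these promoters and the whole peak set. The GC box (GGGCGG) was found in 77.2% of the promoters and in 30.8% of all peaks of the same width, the ETS word (CCGGAAG) in 18% and 6.91%, the NRF1 word (GCGCATGCG) in 3.04% and 0.793%, and the YY1 word (AAGATGGCG) in 3.42% and 1.15%. The ZBTB33 word (TCTCGCGA) was present in 2.03% and 0.447%, the ZNF143 word (ACTACAATT) in 0.688% and 0.289%, the cyclic AMP response element (TGACGTCA) in 3.17% and 1.17%, its shorter core (TGACGT), which every full element also matches, in 13% and 7.30%, and the E-box (CACGTG) in 12.9% and 8.89%. Words that were rarer here than in all peaks were the AP-1 word (TGANTCA, bound by FOS and JUN) at 8.01% against 25.2%, the TEAD word (GGAATG) at 18.8% against 31.7%, the TATA word at 7.37% against 18%, the SOX word (CATTGTT) at 2.68% against 6.66% and the OCT word (ATGCAAAT, bound by POU5F1) at 1.66% against 3.21%. The CCAAT box, at 45.3% against 46.8%, was about as frequent in both. The same words marked the promoters open in both that faced a second gene, several of them more often, with the GC box in 78.1%, the ETS word in 31.7%, the NRF1 word in 4.68%, the YY1 word in 6.31%, the ZBTB33 word in 4.08% and the AP-1 word in 5.94%. All words were searched on both strands, a match is a run of letters and not a bound site, and GC-rich words are met more often in GC-rich DNA.

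Promoters that held some of these words had higher median levels. The median level was 34.7 CPM for the 266 promoters with the ZBTB33 word and 21.7 CPM for those without it, 30.3 and 21.9 CPM for the ZNF143 word (90 promoters), 27.8 and 21.7 CPM for the YY1 word (447 promoters), and 23.7 and 16.3 CPM for the GC box (10,089 promoters). The 217 promoters with the OCT word had a median log2 fold change of mESC over MEF of -0.07, against -0.20 for the remainder, 28.6% of them were called higher in mESCs and 38.2% higher in MEFs, where over all the promoters the shares were 17.3% and 44.3%. Words with fewer calls towards mESCs were ZNF143 (6.67% and 57.8%, median -0.34), YY1 (9.17% and 42.5%, median -0.19), ZBTB33 (9.77% and 52.6%, median -0.24) and NRF1 (10.3% and 57.2%, median -0.30), and the SOX word had 18.9% and 41.1% (median -0.14). These are counts over promoters that share libraries, and no test was made of them.

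Nearly every promoter was called in every sample. In the deposited peak calls, which give a summit, its fold enrichment over the genome-wide background and a -log10 p for each sample alone, 12,462 promoters (95.3%) held a summit in all 12 samples, and 3 held one in fewer than 6. The median fold enrichment at these promoters was 28.6 to 31.3 in MEFs on BGI, 31.2 to 33.4 in MEFs on Illumina, 25.2 to 28.9 in mESCs on BGI and 27.2 to 30.6 in mESCs on Illumina, where all summits of a sample had a median of 4.83 to 5.45. The median -log10 p ranged from 97.7 to 167 over the samples. Because the lists were built from these calls, they describe the choice of the promoters.

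The first comparison asked how far promoters open in both cell types still differed in level between mESCs and MEFs. On BGI, 8060 promoters (61.6%) were called in the fit across all peaks (edgeR, adjusted p under 0.05), 2264 of them higher in mESCs and 5796 higher in MEFs, against 84.1% called among all peaks. A change of at least 1 on the log2 scale was much rarer, with 1241 promoters (9.49%), 458 higher in mESCs and 783 higher in MEFs, against 63.0% of all peaks. On Illumina, 8435 promoters were called (2324 higher in mESCs and 6111 higher in MEFs, background 84.6%), 1202 of them with a change of at least 1 (443 and 759, background 62.8%). The rule itself asked for a peak in both cell types, so these shares describe the choice of promoters and nothing is read from their distance to the background. Both platforms read the same libraries, and 7468 promoters were called on both. The 3 MEF samples did not overlap the 3 mESC samples on either platform at 7460 promoters (57.0%, background 81.6%), 2534 with the mESC samples on top and 4926 with the MEF samples on top. Neither platform called 4051 promoters, and 3984 (30.5%) had a fitted log2 fold change within 0.25 of 0 on both. The SD of the log2 fold change was 0.586 over the promoters and 2.65 over all peaks.

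The balance of directions changed with the scaling. The median log2 fold change of mESC over MEF was -0.20 over the promoters and -0.08 over all peaks with TMM scaling, and -0.06 and 0.06 when samples were scaled by the down-sampled depth instead, so that all peaks moved by more than 0.1. Of the called promoters, 28.1% were higher in mESCs with TMM scaling, 32.1% with DESeq2's size factors and 43.8% with the down-sampled depth on BGI, and 27.6%, 30.3% and 40.6% on Illumina. Over all peaks on BGI, 37,355 were called higher in mESCs and 39,470 higher in MEFs with TMM scaling, and 39,710 and 35,488 with the down-sampled depth. On Illumina the counts over all peaks with TMM scaling were 37,646 and 39,666. Relative to the median of all peaks the promoters lay 0.12 lower in mESCs on BGI and 0.13 lower on Illumina, a difference that a change of scaling leaves as it is. All levels are of bulk samples, in which fewer cells with a promoter open and less accessible DNA per cell cannot be told apart.

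**Figure D2:**
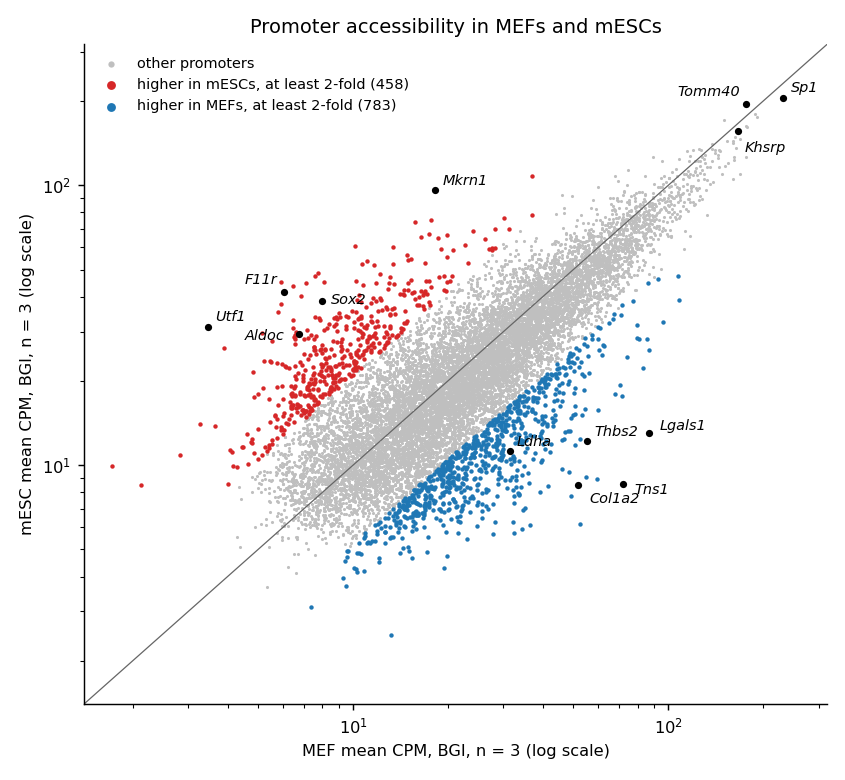
Mean level of each of the 13,078 promoters in MEFs (x axis) and mESCs (y axis) on BGI, in counts-per-million on log axes, with 3 samples per cell type and named promoters labelled. Coloured points are the 458 promoters called higher in mESCs and the 783 called higher in MEFs with a log2 change of at least 1, and the labelled promoters away from the diagonal differ by up to 8.74-fold (Tns1).

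Among the most accessible promoters the cell types were close. The highest mean level of all belonged to Sp1, which encodes the factor that binds GC boxes, with 229, 249 and 219 CPM in MEFs and 204, 225 and 191 CPM in mESCs on BGI. The groups overlapped, and the log2 fold change of mESC over MEF was -0.24 ± 0.08 (SE, adjusted p = 0.016, edgeR). Tomm40, the import channel of the outer mitochondrial membrane, had 183, 187 and 158 CPM in MEFs and 196, 206 and 186 CPM in mESCs, also with overlap and with a log2 fold change of 0.09 ± 0.09 (adjusted p = 0.36).

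G3bp1, the scaffold of stress granules, had 171, 190 and 167 CPM in MEFs and 157, 175 and 157 CPM in mESCs (log2 fold change -0.18 ± 0.08, adjusted p = 0.057). Khsrp, an RNA-binding protein of splicing and mRNA decay, had 166, 172 and 160 CPM in MEFs and 157, 171 and 142 CPM in mESCs (-0.15 ± 0.08, adjusted p = 0.11). Both overlapped between the cell types. Of the 8 promoters with the highest levels, which also include the small GTPase Rab40c (178 CPM over the 12 samples), the lipid phosphatase Mtmr4 (176 CPM), the oxysterol-binding protein Osbp (162 CPM) and the nuclear import receptor Kpnb1 (159 CPM), Sp1, Mtmr4, Osbp and Kpnb1 were called slightly higher in MEFs on BGI, with log2 fold changes of -0.20 to -0.28. With the down-sampled depth none of the 4 was called (-0.09, -0.05, -0.06 and -0.13), and each also lost its call when MEF 1 or mESC 1 was left out. Only Osbp was without overlap on both platforms. Mtmr4 was not called on Illumina (-0.07 ± 0.07, adjusted p = 0.37), and Rab40c had a log2 fold change of -0.14 ± 0.09 (adjusted p = 0.14) that became 0.01 when scaled by the down-sampled depth.

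Large differences were rare at high levels. Over all the promoters 9.49% had a called change of at least 1 on BGI, and over all peaks 63.0%. A called change of at least 1 was present at 6.99% of the 1059 promoters under 10 CPM, at 13.8% of the 4746 between 10 and 20 CPM, at 9.21% of the 4931 between 20 and 40 CPM, at 2.76% of the 2063 between 40 and 80 CPM and at 1 of the 279 above 80 CPM. They were also rarer in CpG-rich promoters: the share was 18.3% for a CpG ratio under 0.2, 20.7% from 0.2 to 0.4, 16.1% from 0.4 to 0.6, 9.30% from 0.6 to 0.8, 5.13% from 0.8 to 1 and 3.69% above 1. The interquartile range of the log2 fold change narrowed from 1.02 in the lowest of these bins to 0.49 in the highest. The AP-1 word was found in 30.9% of the promoters in the lowest bin and 3.69% of those in the highest, and the GC box in 19.5% and 88.9%.

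Towards MEFs, the 10 promoters with the lowest p-values are described first, among called changes of at least 1 whose MEF and mESC samples did not overlap on either platform, so that the gap between the groups is part of the choice. Tns1, encoding tensin, which links integrins to actin, had 72.3, 71.2 and 72.1 CPM in MEFs and 8.26, 9.70 and 7.83 CPM in mESCs on BGI. The samples of the cell types were far apart, and the log2 fold change was -3.13 ± 0.11 (SE, 8.74-fold lower in mESCs after TMM scaling, adjusted p = 1.7e-13, edgeR). Its peak has a CpG ratio of 0.126, although its GC content is 59.6%.

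Lgals1, encoding the secreted lectin galectin-1, had 91.6, 90.7 and 78.1 CPM in MEFs and 13.7, 11.2 and 14.1 CPM in mESCs (log2 fold change -2.81 ± 0.11, adjusted p = 6.3e-13). Tagln, the actin-binding transgelin of smooth muscle and fibroblasts, had 60, 60.6 and 57.4 CPM in MEFs and 9.14, 7.21 and 10.3 CPM in mESCs (-2.81 ± 0.12, adjusted p = 1.2e-12). The TSS of Tagln lies 7 bp from the centre of the peak, and 3 GC boxes lie in the bases printed above. Col1a2, a chain of type I collagen, had 49.5, 45.5 and 60.4 CPM in MEFs and 8.83, 8.57 and 8.08 CPM in mESCs (-2.67 ± 0.12, adjusted p = 2.6e-12).

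Thbs2, a matrix glycoprotein, had 54.8, 55.8 and 55.6 CPM in MEFs and 13.9, 10.2 and 12.5 CPM in mESCs (log2 fold change -2.25 ± 0.11, adjusted p = 6.2e-12). The other promoters with the lowest p-values in this direction were Fam118a (-2.73 ± 0.12), the fibrillin-associated matrix gene Adamtsl4 (-2.57 ± 0.13), the platelet-derived growth factor receptor Pdgfrb (-2.43 ± 0.11), the guanine nucleotide exchange factor Arhgef40 (-2.17 ± 0.11) and C1qtnf6 (-1.99 ± 0.10), with MEF means of 49.2, 32.5, 48.5, 50.5 and 68.0 CPM and mESC means of 7.76, 5.74, 9.44, 11.8 and 17.9 CPM. Fam118a had the lowest CpG ratio of the 20 promoters named by this rule, 0.0342. On Illumina the log2 fold changes of these 10 promoters were between -3.14 (Tns1) and -1.96 (C1qtnf6).

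In the other direction, the 10 promoters with the lowest p-values were chosen in the same way, again without overlap. Utf1, a chromatin protein of pluripotent cells, had 3.0, 3.68 and 3.73 CPM in MEFs and 30.1, 33.5 and 30.1 CPM in mESCs on BGI (log2 fold change 3.10 ± 0.14, 8.60-fold, adjusted p = 3.1e-12). F11r, the tight-junction adhesion molecule JAM-A, had 5.77, 6.51 and 5.87 CPM in MEFs and 43.4, 42.5 and 39.1 CPM in mESCs (2.72 ± 0.12, adjusted p = 1.8e-12).

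Prkcz, an atypical protein kinase C of cell polarity, had 9.60, 11 and 9.91 CPM in MEFs and 60.8, 63.8 and 56.8 CPM in mESCs at its upstream promoter (log2 fold change 2.51 ± 0.11, adjusted p = 1.2e-12). Mkrn1, an E3 ubiquitin ligase, had the highest level of these 10, with 16.7, 17.7 and 20.3 CPM in MEFs and 92.1, 106 and 90.1 CPM in mESCs (2.33 ± 0.10, adjusted p = 1.7e-12). L1td1, an RNA-binding protein of pluripotent cells, had 5.59, 5.37 and 6.32 CPM in MEFs and 33.2, 36.5 and 35.8 CPM in mESCs (2.54 ± 0.12, adjusted p = 5.6e-12), with the peak centred at -1147 bp from its annotated start.

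The other promoters of this direction were Sptbn4, a spectrin of the membrane skeleton (2.60 ± 0.12), Tc2n (2.59 ± 0.12), the adenylate kinase Ak7 (2.42 ± 0.11), C2cd4c (2.09 ± 0.10) and Stxbp5l, a regulator of vesicle fusion (2.02 ± 0.10). Their MEF means were 5.93, 7.74, 8.08, 11.6 and 17.7 CPM and their mESC means were 37.6, 48.8, 45.3, 51.9 and 75 CPM. On Illumina the 10 log2 fold changes ranged from 1.91 (Stxbp5l) to 2.94 (Utf1). The GC content of these peaks ran from 48.4% at L1td1 to 69.5% at Prkcz.

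**Figure D3:**
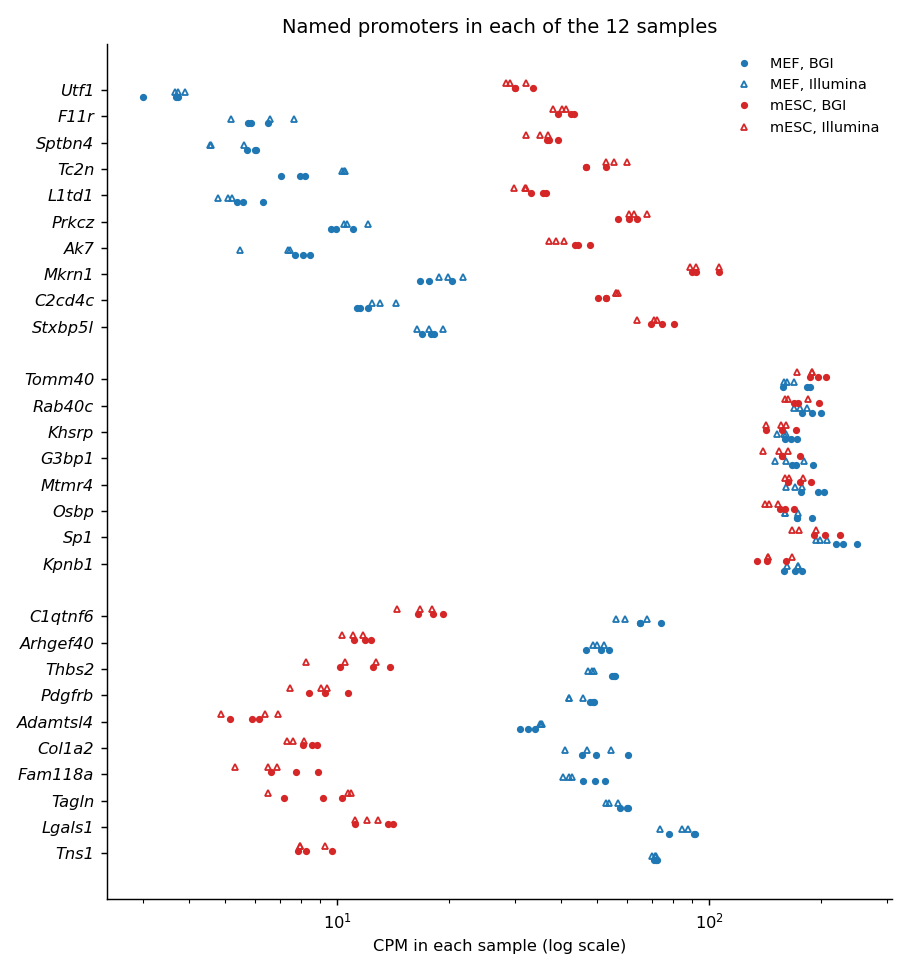
Levels in counts-per-million (log axis) of the 10 promoters with the lowest p-values higher in mESCs, the 10 higher in MEFs and the 8 with the highest levels, with 1 point per sample for the 3 MEF and 3 mESC libraries on each platform. The first 20 promoters were chosen for points of MEFs and mESCs that do not overlap and the other 8 by level alone, whose points lie between 134 and 249 CPM.

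Some markers of 1 cell type had a promoter that was accessible in both. Sox2, a core pluripotency factor, had 7.02, 8.85 and 8.12 CPM in MEFs and 31.9, 46.7 and 37.5 CPM in mESCs (log2 fold change 2.21 ± 0.15, adjusted p = 2.5e-10, edgeR). Esrrb, a nuclear receptor of the pluripotency network, had 10, 8.05 and 9.91 CPM in MEFs and 9.08, 8.04 and 10.9 CPM in mESCs at its promoter open in both (-0.07 ± 0.17, adjusted p = 0.72). The other promoter peaks of Esrrb were listed in mESCs only, and the sum over all of them was 10.6 CPM in MEFs and 44.4 CPM in mESCs on BGI.

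Tdgf1, a co-receptor of Nodal, was of the same kind, with 7.14 ± 0.98 CPM (SD, n = 3) in MEFs and 8.54 ± 0.84 CPM in mESCs at the shared promoter (log2 fold change 0.19 ± 0.18, adjusted p = 0.33) and a sum over its 3 promoter peaks of 11.6 and 78.8 CPM. The mESC samples lay just above the MEF samples on both platforms, and the difference was called on Illumina (0.42 ± 0.18, adjusted p = 0.039) but not on BGI, where a GC offset turned it to -0.34 (adjusted p = 0.085). Pou5f1, Nanog, Zfp42, Dppa5a and Epcam had no promoter that met the rule.

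Of the 8 fibroblast markers, 6 had such a promoter. Thy1, whose protein was the sort marker, had 38.9, 30.1 and 36.1 CPM in MEFs and 9.84, 10.6 and 12.9 CPM in mESCs (log2 fold change -1.72 ± 0.13, adjusted p = 1.3e-09). Twist1, a transcription factor of mesenchyme, had 30.3, 35.8 and 34.9 CPM in MEFs and 6.75, 10.2 and 6.77 CPM in mESCs (-2.15 ± 0.15, adjusted p = 5.1e-10). Fbn1 (fibrillin-1, -1.71 ± 0.12) and a Col1a1 peak 928 bp downstream of the nearest start (-1.59 ± 0.11) fell in the same direction, without overlap. The Pdgfra promoter, in contrast, had 25, 22.9 and 26.2 CPM in MEFs and 23.4, 30.2 and 28.2 CPM in mESCs (0.08 ± 0.11, adjusted p = 0.53), while 6 promoter peaks of this growth factor receptor summed to 76.7 CPM in MEFs and 57.8 CPM in mESCs.

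Markers of further cell types also fell among these promoters. Cdh1, the epithelial cadherin that mESCs carry, had a log2 fold change of 2.07 ± 0.13 (adjusted p = 1.2e-10), Krt8 0.91 ± 0.13 and the neural factor Pax6 1.38 ± 0.14. The peak assigned to the macrophage gene Cd68 had 14.2, 10.9 and 8.12 CPM in MEFs and 57.2, 49.7 and 54.5 CPM in mESCs (2.21 ± 0.15, adjusted p = 3.2e-10), although Ptprc and Spi1 had no promoter peak at all. The endothelial receptor Kdr had 14.5 ± 1.6 CPM (SD, n = 3) in MEFs and 14.2 ± 1.3 CPM in mESCs (-0.10 ± 0.14, adjusted p = 0.49), with overlapping samples. A promoter peak in bulk cells does not tell which cells carry it, and whether cells of another type contributed was not tested.

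Genes that every cell needs were described by 21 lists, each gene being represented by its most accessible promoter of the set. Over all 10,353 gene symbols with such a promoter, 1782 were called higher in mESCs and 4678 higher in MEFs on BGI (62.4%), with a median log2 fold change of -0.20, and the lists are given beside these values with no test of their own. Scaling by the down-sampled depth in place of TMM raised the median of every list by 0.14 to 0.15, moved 7 of them above 0, and gave 2436 and 3127 calls over all these genes (background 82.3% of all peaks), so the counts of each list are given under both scalings, in the order higher in mESCs and higher in MEFs. For the lists of the expression machinery, 62 of 78 genes of the cytosolic ribosome had a promoter of the set, of which 3 were called higher in mESCs and 25 higher in MEFs (median -0.18, but 8 and 9 calls with the down-sampled depth). In the same list Rpl10a had 44.1 ± 2.4 CPM in MEFs and 20.6 ± 0.67 CPM in mESCs (SD, n = 3; -1.17 ± 0.10, adjusted p = 3.2e-09, edgeR).

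Of the translation factors, 32 of 42 genes were present, 3 called higher in mESCs and 20 higher in MEFs (median -0.32, and 4 and 11 calls with the down-sampled depth), and the extremes were both subunits of initiation factor 3, Eif3d (-0.87 ± 0.12) and Eif3m (0.73 ± 0.11). Among the aminoacyl-tRNA synthetases, which charge tRNAs, 16 of 22 genes were present and 1 was called higher in mESCs and 3 higher in MEFs (median -0.01, but 5 and 1 calls and a median of 0.14 with the down-sampled depth, and medians of 0.03 with DESeq2's size factors and 0.08 on Illumina), from Tars (-0.50 ± 0.09) to Farsb (0.52 ± 0.14). The general transcription machinery had 54 of 73 genes with 3 and 26 called (median -0.23, and 8 and 15 calls with the down-sampled depth), with Cdk8 of the Mediator kinase module at -1.11 ± 0.14 and Gtf2a2 at 0.40 ± 0.12. Splicing had 34 of 49 genes with 4 and 12 called (median -0.11, but 8 and 9 calls and 0.03 with the down-sampled depth), where U2af2, which binds the polypyrimidine tract, fell by 0.99 on the log2 scale in mESCs and Hnrnpu was higher there (0.53 ± 0.12).

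Genes of protein turnover and trafficking came next. The proteasome had 25 of 31 genes, of which 9 were called, each higher in MEFs (median -0.14, but 1 call in each direction and a median of 0.01 with the down-sampled depth, and a median of -0.03 on Illumina), from Psmc1 (-0.44 ± 0.13) to Psmd7 (0.15 ± 0.13, adjusted p = 0.31). Chaperones and stress genes had 26 of 38 genes, of which 15 were called, also each higher in MEFs (median -0.28, and 2 and 10 calls with the down-sampled depth), from Hspa8 (-1.38 ± 0.13, at a peak centred at -915 bp from the start) to Hspa5, the chaperone of the endoplasmic reticulum (0.17 ± 0.10, adjusted p = 0.13). Lysosome and autophagy genes (33 of 44 present) had 2 and 16 calls with a median of -0.30 (3 and 8 calls with the down-sampled depth), between Psap (-0.91 ± 0.12) and Atp6v0e (0.37 ± 0.13). The secretory pathway (44 of 52 present) had 4 and 22 calls with a median of -0.24 (10 and 14 calls with the down-sampled depth, and a median of -0.16 on Illumina), between Copz2 (-1.37 ± 0.17) and Sec24a (0.40 ± 0.11), the latter not called on Illumina (0.16 ± 0.10, adjusted p = 0.13).

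In energy and biosynthesis, glycolysis had 19 of 20 genes, with 4 called higher in mESCs and 9 higher in MEFs (median -0.22, but 4 and 4 calls with the down-sampled depth). Ldha, lactate dehydrogenase A, had 32.6, 30.2 and 31.4 CPM in MEFs and 10.5, 11.1 and 12.1 CPM in mESCs (log2 fold change -1.55 ± 0.11, adjusted p = 7.6e-10), and the aldolase Aldoc had 6.92, 6.26 and 6.97 CPM in MEFs and 30, 27.4 and 30.9 CPM in mESCs (2.06 ± 0.12, adjusted p = 7.7e-11). The samples of neither gene overlapped. Aldoa, an aldolase gene chosen after its values were seen, had a more accessible promoter (60.3 CPM over the 12 samples, against 17.6 CPM for Aldoc) that was called higher in MEFs (-0.43, adjusted p = 0.00011). The respiratory chain (42 of 74 present) had 6 and 16 calls with a median of -0.13 (10 and 9 calls and 0.02 with the down-sampled depth), from Ndufb4 (-0.78 ± 0.10) to Uqcrc1 (0.68 ± 0.10).

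The mitochondrial ribosome (42 of 78 present) had 4 and 14 calls, with a median of -0.08 on BGI, of 0.06 on BGI with the down-sampled depth (8 and 9 calls) and of -0.21 on Illumina, from Mrpl48 (-0.85 ± 0.10) to Mrpl28 (0.64 ± 0.11). For 16 further genes of this list the open promoter faces a second gene on the opposite strand and was left out by the rule. Nucleotide and one-carbon synthesis (27 of 33 present) had 4 and 14 calls (median -0.25, and 4 and 9 calls with the down-sampled depth), from Shmt2 (-0.94 ± 0.17) to the purine enzyme Pfas (0.86 ± 0.12). Cholesterol synthesis (23 of 25 present) had 3 and 8 calls (median -0.14, but 5 and 4 calls and 0.01 with the down-sampled depth, and -0.07 on Illumina) and the highest median level of the 21 lists, 55.1 CPM, from Mvd (-0.50 ± 0.09) to Scap, the sterol sensor that escorts SREBP (0.80 ± 0.12).

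For chromosomes and the nucleus, DNA replication (31 of 46 present) had 1 and 11 calls with a median of -0.12 (4 and 3 calls and 0.02 with the down-sampled depth), from the kinase Cdc7 (-0.98 ± 0.13) to Pola1 of the primase complex (0.29 ± 0.11). Mitosis genes (33 of 40 present) had 1 and 15 calls with a median of -0.20 (4 and 8 calls with the down-sampled depth), from the securin Pttg1 (-0.69 ± 0.10) to the kinetochore gene Cenph (0.25 ± 0.12, adjusted p = 0.052). DNA repair (29 of 48 present, 11 more facing a second gene) had 5 and 10 calls with a median of -0.16, a balance that turned to 8 and 4 calls with the down-sampled depth, with Rad52 at -1.14 ± 0.12 and Ercc1, a nuclease subunit of excision repair, at 0.95 ± 0.09. The nuclear pore (36 of 47 present) had 4 and 17 calls (5 and 10 with the down-sampled depth), between Nup85 (-1.0 ± 0.18) and Nup35 (0.58 ± 0.11).

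Focal adhesion and actin genes (44 of 52 present) had 5 and 21 calls (median -0.26, and 7 and 18 calls with the down-sampled depth), and 4 of them passed a change of at least 1. Parva, which couples integrin-linked kinase to actin, had 26.4 ± 3.0 CPM in MEFs and 7.16 ± 0.92 CPM in mESCs (SD, n = 3; -1.94 ± 0.14, adjusted p = 7.3e-10), and Actr2 of the Arp2/3 complex had 60 ± 2.3 and 98.4 ± 6.4 CPM (0.65 ± 0.08, adjusted p = 1.1e-06). The primary cilium list (33 of 44 present) had 2 and 19 calls (median -0.31, and 4 and 14 calls with the down-sampled depth). Its extremes were Bbs7 (-0.92 ± 0.10) and Bbs9 (0.45 ± 0.09), which both encode subunits of the BBSome, the complex that carries membrane proteins in cilia.

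**Figure D4:**
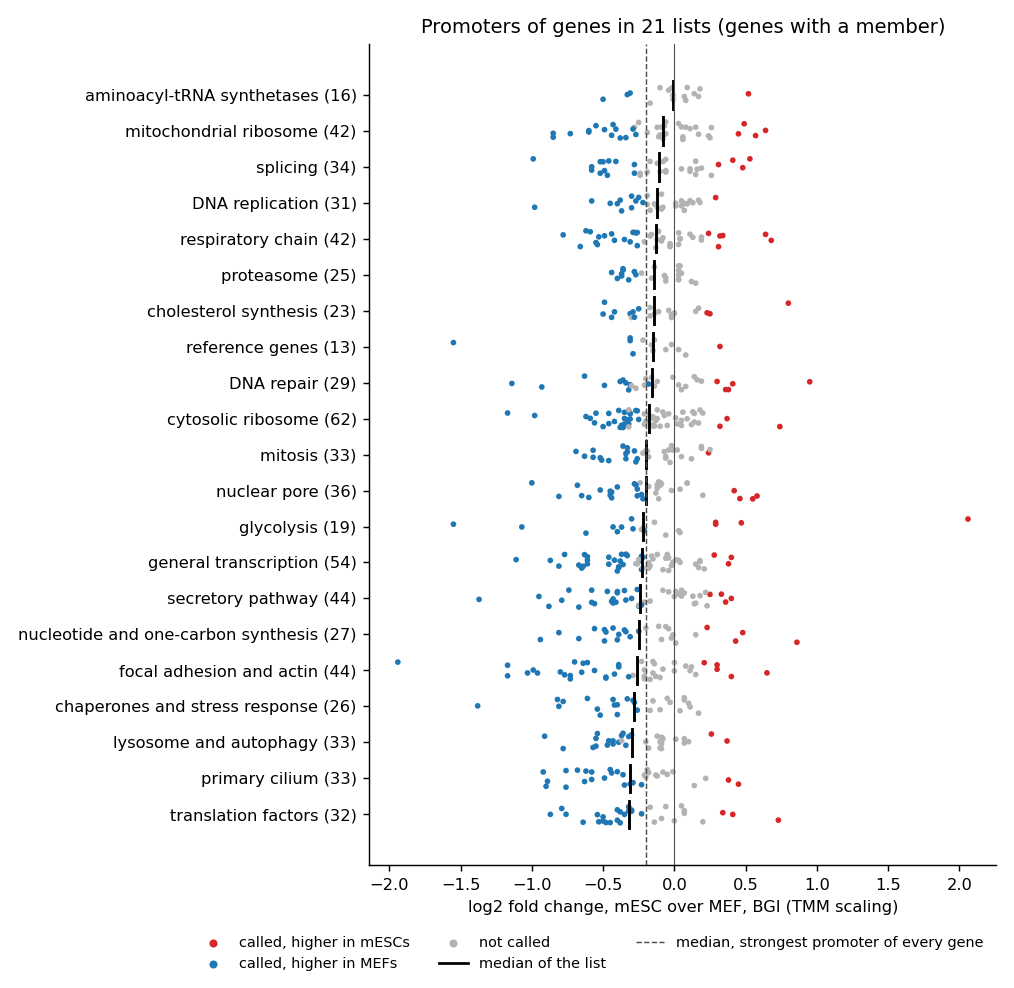
Log2 fold change of mESC over MEF on BGI for the genes of each of the 21 lists (x axis), 1 point per gene at its most accessible promoter, with called and not called genes in different colours and the list median as a bar. The medians run from -0.32 for the translation factors to -0.01 for the aminoacyl-tRNA synthetases, against -0.20 over all genes with such a promoter, and with the down-sampled depth they lie 0.14 to 0.15 higher, 7 of them above 0.

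The genes used as references in expression assays had 13 of 19 with a promoter of the set. Of these, 5 (38.5%) were called on BGI, against 62.4% of all genes with such a promoter and 84.1% of all peaks. With the down-sampled depth 2 were called (background 82.3% of all peaks). Gusb, beta-glucuronidase, had 35.7, 35.4 and 30.7 CPM in MEFs and 12.5, 11.4 and 12.6 CPM in mESCs (log2 fold change -1.55 ± 0.11, adjusted p = 9.9e-10, edgeR), with a wide gap between the groups. Tubb5 (-0.31 ± 0.11, adjusted p = 0.016), Rplp0 (-0.31 ± 0.10, adjusted p = 0.0073) and Ppia (-0.29 ± 0.11, adjusted p = 0.017) were also called higher in MEFs, and the transferrin receptor Tfrc was called higher in mESCs (0.32 ± 0.10, adjusted p = 0.0075).

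Among those not called on BGI were Gapdh (-0.22 ± 0.10, adjusted p = 0.058), Ywhaz (-0.16 ± 0.10), Rpl13a (-0.15 ± 0.10), Hprt (-0.14 ± 0.13, but 0.01 with the down-sampled depth), Eef1a1 (-0.06 ± 0.09, but 0.08), Pgk1 (0.03 ± 0.10) and Actb (0.08 ± 0.10, adjusted p = 0.46). The Gapdh value is that of its most accessible promoter. Of its other promoters, 1 was called higher in mESCs (0.60 ± 0.16, adjusted p = 0.0020) and 1 higher in MEFs (-0.76 ± 0.09, adjusted p = 5.1e-07). Actb had 43.5, 37.6 and 46.9 CPM in MEFs and 43.4, 51.6 and 46.8 CPM in mESCs, with overlapping samples. On Illumina, Gapdh (-0.22 ± 0.09, adjusted p = 0.034) and Ywhaz (-0.19 ± 0.09, adjusted p = 0.048) were called. A p above the threshold does not show that a promoter is equally accessible, and the SEs of 0.09 to 0.13 leave room for differences of that order.

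Many genes had more than 1 promoter peak of the set, and at some of them the peaks were called in opposite directions. Each peak is counted as a promoter here, and the furthest peaks of a gene lay a median of 956 bp apart. Neighbouring peaks around 1 start can thus be counted separately, and a choice between start sites was not tested. A single promoter was present at 8078 genes (78.0%), 2 at 1926, 3 at 280, 4 at 58 and 5 at 10, and the highest numbers belonged to Plec with 13, Rreb1 with 7 and Mxi1 with 6. Among the 2277 genes with more than 1, the median range of the log2 fold change within a gene was 0.47, and at 406 genes it was over 1. At 105 genes (4.61%) at least 1 promoter was called higher in mESCs and at least 1 higher in MEFs, each by 0.5 or more on the log2 scale. Of all the promoters, 35.7% were called with a change of that size (background 77.3%). With the down-sampled depth there were 102 such genes, 78 of them among the 105. At 93 of the 105, neither promoter of the most extreme pair overlapped between the cell types on either platform (background 81.6% of all peaks). The pairs were chosen by calls on these same samples, so this count follows in part from the choice. The background is over single peaks that were not chosen by a call, so nothing is read from the distance to it. The same directions were called at 101 of the 105 on Illumina, which read the same libraries.

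The promoters of such a pair were a median of 2123 bp apart, with 524 bp at Ahdc1 and 356,048 bp at Syne1. The one higher in mESCs was the upstream one at 54 genes and the downstream one at 51, and it had the higher GC content at 50, with a median of 59.8% against 62.9% for the one higher in MEFs. No preference in position or GC content is read from these counts. Bend3, a chromatin repressor gene, had the widest difference: a peak at -1048 bp from its nearest annotated start had 4.20, 3.63 and 3.88 CPM in MEFs and 26.5, 26.2 and 26.2 CPM in mESCs (log2 fold change 2.68 ± 0.14, adjusted p = 1.4e-11, edgeR), whereas a peak 2123 bp further downstream had 28.4, 27.2 and 33.7 CPM in MEFs and 17.1, 13.9 and 15.8 CPM in mESCs (-1.0 ± 0.12, adjusted p = 4e-07).

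At Prkcz the 2 promoters lay 16,268 bp apart. The upstream one, printed above, was higher in mESCs as described, and the downstream one had 16.2, 14.4 and 18.5 CPM in MEFs and 12, 6.98 and 9.38 CPM in mESCs (log2 fold change -0.86 ± 0.17, adjusted p = 0.00019). Lzts2 had an upstream peak at 0.88 ± 0.16 and one 2281 bp downstream at -2.43 ± 0.17, and Capg, an actin-capping protein, had an upstream peak at 1.08 ± 0.19 and one 3411 bp downstream at -2.0 ± 0.12. In Hlcs, the biotin ligase, the order was the other way, with the downstream promoter at 1.27 ± 0.11 and the one 22,448 bp upstream at -1.54 ± 0.13. All of these log2 fold changes were called on BGI, and none of the groups overlapped.

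The second comparison asked whether the choice of sequencer changed the counts at these promoters within a cell type. It was made on the peak sets of each cell type on both platforms, in which 12,797 promoters could be tested in MEFs and 12,762 in mESCs. Without the library as a block, edgeR called 1574 promoters in MEFs, 27 higher on BGI and 1547 higher on Illumina (background 4.06% of all peaks), and 1151 in mESCs, 1 higher on BGI and 1150 higher on Illumina (background 3.23%). With the library as a replicate block, which matches the 2 readings of each library, 6114 were called in MEFs (748 higher on BGI and 5366 on Illumina, background 29.2%) and 5924 in mESCs (368 and 5556, background 21.3%). In the fit without the block the count changed with the library left out. Leaving out MEF 1 or MEF 2 gave 0 calls (3139 and 2874 at an unadjusted p under 0.05, background 0% of all peaks), and leaving out MEF 4 gave 3452 (background 9.91%). Leaving out mESC 1 or mESC 5 gave 0 (3020 and 2393 unadjusted, background 0.00149% and 0%), and leaving out mESC 3 gave 804 (background 2.05%). The median log2 ratio of BGI to Illumina over the promoters was -0.12 in MEFs and -0.14 in mESCs without the block, and lay between -0.17 and -0.13 and between -0.15 and -0.13 when single libraries were left out. DESeq2 without the block called 3526 promoters in MEFs (background 9.56%) and 1178 in mESCs (background 3.15%).

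In every library the promoters took a larger share of the reads on Illumina. The share of reads in peaks that fell in the 13,078 promoters was 35.2, 35.4 and 36.6% for MEFs on BGI and 37.9, 38.2 and 39.5% on Illumina, and 32.2, 34.4 and 32% for mESCs on BGI and 34.3, 36.6 and 34.6% on Illumina. It was higher on Illumina in 6 of 6 libraries. Library by library, the median log2 ratio of BGI to Illumina over the promoters was between -0.12 and -0.09, and 67.0 to 69.2% of the promoters were higher on Illumina.

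The difference between platforms moved with the GC content of the promoter. In MEFs the median log2 ratio of BGI to Illumina fell from 0.07 in the decile of promoters with the lowest GC content (median 50.4%) to -0.48 in that with the highest (median 74.7%), and in mESCs from 0.02 to -0.44. In the highest decile, 96.8% of the promoters in MEFs and 97.4% in mESCs were called higher on Illumina in the fit with the block. The same span was present in each single library, from 0.05 to 0.09 in the lowest decile to between -0.37 and -0.49 in the highest. With a correction for GC content added to the block, the counts were 2667 in MEFs (20.8% of the promoters, 1119 higher on BGI and 1548 on Illumina, background 10.7%) and 2545 in mESCs (19.9%, 688 and 1857, background 10.7%), while the same correction without the block left 0 and 1 calls by edgeR (2252 and 1454 at an unadjusted p under 0.05). Why the platforms differed with GC content was not tested.

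**Figure D5:**
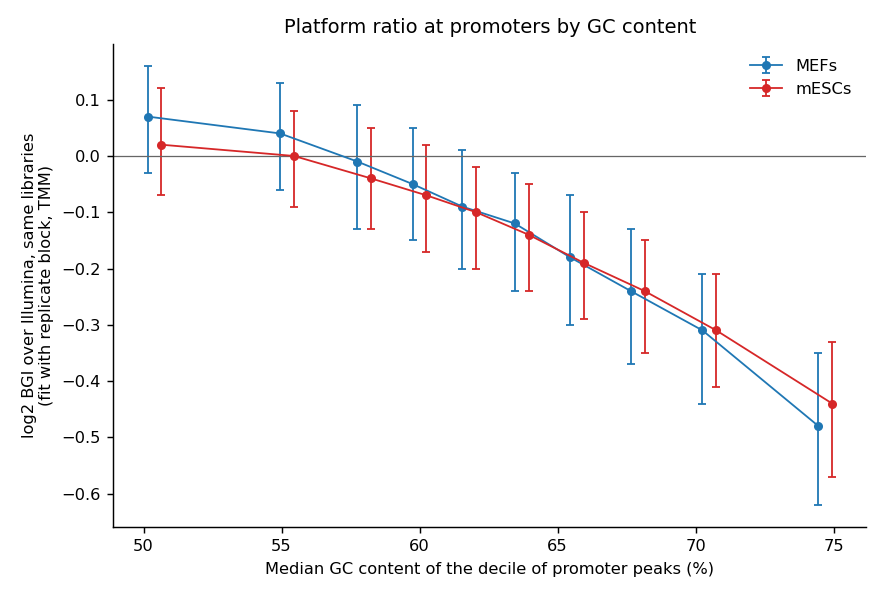
Log2 ratio of BGI to Illumina in deciles of the promoters by GC content (x axis, median GC content in percent), as the median with the interquartile range, for MEFs and mESCs in the fit with the library as a block. The medians go from 0.07 and 0.02 at a GC content of 50.4% to -0.48 and -0.44 at 74.7%.

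Single promoters showed the span, and their levels are given in CPM of the BGI peak set. Med13l, a subunit of the Mediator kinase module with 79.7% GC, had 22.9, 19.3 and 26.7 CPM on BGI and 44.0, 44.2 and 52.2 CPM on Illumina in MEFs 1, 2 and 4. Each library was higher on Illumina, with a log2 ratio of -1.05 (adjusted p = 7.9e-23 with the block and 0.0057 without it, edgeR). In mESCs the ratio was -1.30.

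Dpy19l1, whose GC-rich upstream bases are printed above, had 24.9, 24.9 and 26 CPM on BGI and 45.5, 48.9 and 51.7 CPM on Illumina in MEFs (log2 ratio -0.95, adjusted p = 1.6e-21 with the block and 0.0032 without it). Further promoters that were higher on Illumina were Cnnm3 (-1.08 in MEFs, 82.5% GC), Zmym5 (-1.28 in mESCs, 77.3% GC) and Zfp652 (-0.85 in mESCs, 67.9% GC). Cnnm3 is an example of a promoter whose cell type difference changed sign with the platform, at 0.23 ± 0.16 on BGI and -0.11 ± 0.10 on Illumina, neither of them called.

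In the other direction, Gng2, a G protein subunit with 57.6% GC, had 56.6, 54.2 and 52.8 CPM on BGI and 37.7, 36.6 and 39.6 CPM on Illumina in MEFs (log2 ratio 0.51, adjusted p = 6.6e-12 with the block and 0.0065 without it), and a ratio of 0.60 in mESCs. Eml4 (0.47 in MEFs, 63.9% GC over the peak), Qdpr, dihydropteridine reductase (0.34 in MEFs), Spc25 of the kinetochore (0.40 in mESCs) and Spag7 (0.23 in mESCs) were also higher on BGI with the block. Without it, Spc25 and Spag7 did not pass (adjusted p = 0.18 and 0.16). Spc25 had 31.6, 44.8 and 33.9 CPM on BGI and 23.8, 31.4 and 25.8 CPM on Illumina in mESCs 1, 3 and 5, so that the lowest BGI sample was just above the highest Illumina sample and each library was higher on BGI.

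Both cell types were read on each platform, so that a cell type difference could be set beside the platform difference. The log2 fold changes of mESC over MEF at Gng2 (-0.68 ± 0.09 on BGI and -0.80 ± 0.09 on Illumina), Med13l (-1.06 ± 0.14 and -0.96 ± 0.10) and Dpy19l1 (-0.48 ± 0.11 and -0.63 ± 0.09) kept their sign and their call on both platforms.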

How the data were processed

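Omni-ATAC-seq was measured in 12 samples: 6 libraries (MEF 1, 2 and 4, mESC 1, 3 and 5), each read on BGI (100 bp paired-end) and on Illumina (150 bp, trimmed to 100 bp). Groups were taken from the sample titles. Per the study's methods, the authors trimmed reads with Cutadapt, aligned them with Bowtie2 to GRCm38 (mm10), removed duplicates, mitochondrial reads and reads with a mapping quality under 10, and down-sampled MEF samples to 60 M and mESC samples to 45 M reads. Peaks were called with MACS2 in each sample at a p cutoff of 0.01, and the authors kept summits extended by 250 bp whose score-per-million value was at least 3 in at least 2 samples. The deposited tables hold raw read counts per peak without normalization. The deposited peak calls hold a score, a fold enrichment (ratio) and a -log10 p per summit, and the deposited lists hold positions whose further column marks each peak (unit other).

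The count columns name the platform for BGI only. The unnamed columns were read as Illumina. Across the promoters the ratio of named to unnamed column was checked against the ratio of BGI to Illumina summit signal of the same library (Spearman rho 0.78 to 0.85). Columns of no sample that were left unused numbered 0.

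TSSs were those of protein-coding transcripts in GENCODE M21, and a peak was assigned to the gene of the nearest one, so some peaks also lie near another gene of the same strand. Over 5 changes of the rule the number of promoters was 11,202 to 14,425. Sequence was available for all but 1 promoter. CPM are counts-per-million values over the reads in the BGI peak set, a level is the mean over 12 samples, and fold changes are after TMM scaling and so differ a little from ratios of CPM.

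Tests were edgeR 4.0.16 quasi-likelihood F tests (two-sided, TMM, default filter on low counts, Benjamini-Hochberg over all peaks of the table, called under an adjusted p of 0.05), run in R 4.3.3 on the whole peak table, with DESeq2 1.42.0 as an alternative tool. This test gives no SE, so each SE printed is the size of the log2 fold change divided by the square root of its F statistic. A promoter was followed in the tables of both platforms through a peak covering at least 50% of its width. Library numbers pair the platforms because both read the same library. After removal of group means, the promoter counts of same-numbered samples correlated at r = 0.47 to 0.68 and those of other pairs at -0.44 to -0.06, so the block value is printed beside the platform results. Between cell types the shared number 1 marks different cells and no block was used. Per-library platform ratios used a pseudocount of 0.5 CPM. Alternatives were other scalings, filters, tools, peak sets, a GC offset and leaving out each library.

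The promoters, gene lists and binding words were chosen with earlier results of these data known. The text names the 10 promoters per direction with the lowest p-values among those called by at least 1 on the log2 scale without overlap on either platform, the 8 with the highest level, the extremes of each gene list, the reference genes and markers with such a promoter, and per cell type the 3 per direction with the lowest p-values in the blocked platform fit. Some genes that this rule names are not reported here. Genes with promoters moving in opposite directions were added after their values were seen. Replicates are biological per the study. The p-values measure the spread between them in the cell type fits and in the platform fits without the block. The block takes out the differences between libraries. Platform p-values with the block therefore measure how far the platform difference varied between readings of the same libraries.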

Additional observations from a re-analysis of the deposited data

How the results depend on the processing

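The cell type counts stayed within 1.5 times of the values given under DESeq2, other scalings and filters, a GC offset and Illumina's own peak set (7041 to 8661 on BGI, 7529 to 8908 on Illumina) and on leaving out each library in turn (7084 to 7893 and 7691 to 8584). The filter on low counts removed no promoter. Asking for a log2 change of at least 1 moved them to 1241 on BGI (458 higher in mESCs and 783 higher in MEFs) and 1202 on Illumina (443 and 759), by construction. The median log2 fold change on BGI, -0.201, moved to -0.058 when scaled by the down-sampled depth, and leaving out single libraries gave -0.209 to -0.163.

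The platform counts depended on the model. In MEFs, 1574 promoters without a block became 6114 with the replicate block, 2667 with the block and a GC offset, 6819 with the block on the BGI peak set, 3526 with DESeq2 and 0 with the GC offset alone by edgeR (2252 at an unadjusted p under 0.05). In mESCs, 1151 became 5924, 2545, 6005, 1178 and 1 (1454 unadjusted). With the block on the BGI peak set, the background was 17.8% of all peaks in MEFs and 15.6% in mESCs. Leaving out single libraries gave 0 to 3452 in MEFs (background up to 9.91%) and 0 to 804 in mESCs (background up to 2.05%) without the block. With it the counts were 4753, 4532 and 6401 without MEF 1, 2 and 4 (background 18.1, 17.8 and 24.6%). They were 5004, 4175 and 4870 without mESC 1, 3 and 5 (background 16.7, 13.6 and 15.8%). The fits with the block and a library left out, and the down-sampled depth for genes with opposite promoters (102 against 105 genes), were chosen after seeing the data. For these counts the cause was not tested.

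Of 1417 values for 109 named promoters under 13 settings, 1330 kept their direction and their side of the threshold, 43 were no longer called, 30 became called and 14 changed sign, each of the last at a promoter not called on BGI. With the down-sampled depth the log2 fold change became 0.01 for Rab40c, 0.08 for Eef1a1, 0.01 for Hprt, 0.04 for Kdr, 0.04 for Spag7 and 0.07 for Esrrb, and on Illumina it was -0.11 for Cnnm3. With a GC offset Tdgf1 became -0.34 and Tomm40 -0.04. Leaving out single libraries gave -0.02 to 0.13 for Pgk1, -0.16 to 0.05 for Kdr and -0.18 to 0.06 for Esrrb. With 3 libraries per cell type and a median of 306 to 514 reads per promoter and sample, log2 differences of about 0.2 sit near the threshold: Mtmr4, Cenph, Sp1, Osbp, Ppia, Tubb5, Kpnb1 and Spc25 each lost or gained their call under 4 or more settings.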

Other observations

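Chromosome 15 stood lowest among the chromosomes. Its 570 promoters had a median log2 fold change of mESC over MEF of -0.30 on BGI and -0.31 on Illumina, whereas the other chromosomes had medians of -0.23 to -0.15 on BGI. The median GC content (63.4%) and level (22.6 CPM) of these promoters lay within the range of the other chromosomes. The chromosome was noticed after the values were seen and no test was made of it. The named promoters of Lgals1, Fam118a, C1qtnf6 and Sp1, among others, lie on it, and whether the cultures differed in the number of copies of this chromosome was not tested.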
